A study of Mus musculus with 13 samples.

Results

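Sdk1, Chl1, Slit3, Cacna1e and Tshz2 are 5 long mouse genes better known from neurons than from lymphocytes, and each was read here in single cells of the thymus. They were picked by name because each had led a cluster of double-negative, cycling, double-positive or CD4-lineage cells in these same libraries. The pattern over the stages therefore chose the genes, and their levels are given as a description without a test. They are 5 of the 57010 genes listed for either kit. All 5 were above a minimum of 100 unique molecular identifiers (UMIs, tags counted in place of reads), which 14439 genes reached in the thymic cells of the Parse WT kit and 12283 in those of the Parse Mini kit.

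T cells develop in the thymus in ordered stages. Double-negative (DN) cells carry neither CD4 nor CD8, commit to the T lineage and rearrange the T-cell receptor β gene. Double-positive (DP) cells first proliferate (DP-P), then recombine the α gene (DP-R), then undergo selection (DP-S) and mature into CD4 or CD8 single-positive (SP) cells. Genes of axon guidance, synaptic adhesion and calcium entry are read mostly in the nervous system, where many of them span very long loci.

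The thymic cells came from 2-month-old female C57BL/6N mice labelled as controls, with 2 lobes from each of 2 mice in each kit. The 4 Parse WT lobes are called lobes 1 to 4 here, and the 4 Parse Mini lobes 1-A, 1-B, 2-A and 2-B. The labels used here do not say which lobes share a mouse, so every SD is over 4 lobes of only 2 mice. The kits also differed in mice and in run, so kit and mice cannot be told apart. Both kits tag the RNA of fixed cells by split-pool barcoding, in which the well of the barcoding round that starts the protocol names the tissue sample. The Parse WT library held 16 other tissue samples, and the labels describe the library only as a whole, as thymus and spleen with and without chronic stress. The study's text calls these other samples non-thymic, and the labels give no tissue for each of them.

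After filtering, 37519 Parse WT cells and 18365 Parse Mini cells were used, with 3908 to 13240 and 4101 to 4957 cells per lobe. A lobe's median was 2717 to 3563 UMIs per cell in Parse WT and 2170 to 2910 in Parse Mini, and no thymic cell of Parse WT shared its barcode combination with Parse Mini. Levels below are UMIs of a gene summed over the cells of a class in a lobe, as counts per 1e6 UMIs outside ribosomal RNA (CPM), given as mean ± SD (n = 4 lobes). Clusters were named from fixed markers, so that "DN-like" is a cluster led by such genes as Il2ra and Erg rather than a sorted stage, and 10 classes could be compared in Parse WT and 9 in Parse Mini, where no regulatory T-cell-like (Treg-like) class was resolved. The list that named DP-P-like clusters held only genes of the cell cycle and of DNA replication. DP-P-like therefore means cycling, and the class can hold cycling cells of other stages. A Parse Mini DP-P-like cluster of 289 cells held 184 cells of lobe 2-A, 105 of lobe 2-B and 0 of the other lobes.

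The members share their length. Sdk1 spans 974 kb on chromosome 5 (141241490 to 142215586, plus strand), Slit3 587 kb on chromosome 11 (35121224 to 35708507, plus strand) and Cacna1e 494 kb on chromosome 1 (154390731 to 154884501, minus strand). Tshz2 spans 439 kb on chromosome 2 (169633013 to 170071816, plus strand) and Chl1 240 kb on chromosome 6 (103510586 to 103750211, plus strand). Positions are from GENCODE M21 on GRCm38, the assembly named mm10 for these files. The median protein-coding gene spans 17.4 kb, and of 21880 such genes 58 are longer than Sdk1 and 766 longer than Chl1. Exons cover 1.03% of Slit3, 1.14% of Sdk1, 1.77% of Tshz2, 5.11% of Cacna1e and 5.13% of Chl1, so nearly all of each locus is intron.

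Small annotated genes lie inside 4 of the 5 loci, and none of those listed for these kits had more than 9 UMIs in the thymic cells, against 1796 UMIs or more for the member it overlaps. The antisense genes Gm26883 and A630075F10Rik, which lie across Tshz2 on the minus strand, are not among the listed genes. No source used here says whether the counting used strand, so their reads and those of Tshz2 cannot be told apart. An intron of Slit3 holds the microRNA gene Mir218-2, which had 0 UMIs in both kits. Its mature product is shown as the named small RNA inside this locus, with the seed (bases 2 to 8) in capitals, from RefSeq on GRCm38.p6, chr11:35616840-35616860, plus strand.
miR-218-5p: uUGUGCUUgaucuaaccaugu

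The 300 bases around each RefSeq transcription start (250 before and 50 after) were searched on both strands for 6 motifs: the CHR element of late cell-cycle genes (TTTGAA), the CCAAT box, the E-box (CANNTG), and the letters read by RUNX (TGTGGT), by Gata3 and its relatives (AGATAA) and by TCF1/LEF1 factors (CTTTGA). The promoter windows of Sdk1, Chl1 and Tshz2 are shown as the members with a match, for the cycling, CD4-lineage and DN-like classes, with matched letters in capitals. They are chr5:141241284-141241583, chr6:103510626-103510925 and chr2:169632259-169632558, all on the plus strand of GRCm38.p6.
Sdk1: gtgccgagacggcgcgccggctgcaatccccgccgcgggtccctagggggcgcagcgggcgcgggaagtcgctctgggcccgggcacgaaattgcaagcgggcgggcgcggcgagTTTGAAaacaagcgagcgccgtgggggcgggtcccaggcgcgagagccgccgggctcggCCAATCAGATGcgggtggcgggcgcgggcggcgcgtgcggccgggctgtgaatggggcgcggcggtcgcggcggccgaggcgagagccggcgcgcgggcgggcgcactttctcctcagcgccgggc
Chl1: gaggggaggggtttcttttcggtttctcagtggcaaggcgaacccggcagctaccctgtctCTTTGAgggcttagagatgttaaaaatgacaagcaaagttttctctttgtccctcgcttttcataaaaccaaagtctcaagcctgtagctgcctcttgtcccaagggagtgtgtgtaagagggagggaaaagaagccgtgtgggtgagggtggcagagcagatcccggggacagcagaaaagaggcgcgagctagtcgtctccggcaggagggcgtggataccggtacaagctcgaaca
Tshz2: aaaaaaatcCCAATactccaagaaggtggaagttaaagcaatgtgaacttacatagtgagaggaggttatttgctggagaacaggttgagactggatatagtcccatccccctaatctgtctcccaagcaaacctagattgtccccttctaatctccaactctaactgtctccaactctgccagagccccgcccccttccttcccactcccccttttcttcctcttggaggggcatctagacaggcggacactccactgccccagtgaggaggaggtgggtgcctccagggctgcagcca

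In the Sdk1 window the CHR letters start at -135 from the start site and CCAAT at -76, and CCAAT runs on into an E-box at -71, the motifs sharing no letter. Chl1 has CTTTGA at -189 and Tshz2 has CCAAT at -241. Slit3 and Cacna1e have none of the 6 motifs in their windows, and the RefSeq start used for Cacna1e (chr1:154725871-154726170, minus strand) lies inside the longer GENCODE gene. Of 32851 promoter windows, 17.9% hold the CHR letters, 37.4% CCAAT and 72.3% an E-box, and 5257 windows hold CTTTGA, so each match is a common one. The Sdk1 and Slit3 windows are 78.3% G and C, with 54 and 41 CpG dinucleotides, against a median of 52.7% and 7 over all windows. The Chl1, Cacna1e and Tshz2 windows lie near that median at 53.7%, 55.3% and 52.0%.

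Tshz2 marked the DN-like cells in both kits, Sdk1 the cycling cells named DP-P-like, Slit3 the DP-R-like cells and Chl1 the SP-CD4-like cells. Cacna1e was high in DP-R-like and B-cell-like cells. A gene was counted as standing apart where the lowest lobe of its highest class lay above the highest lobe of every other class. By that rule 3 of 5 members stood apart in Parse WT (Sdk1, Chl1 and Tshz2), where 9.67% of all genes tested did, and 2 of 5 in Parse Mini (Chl1 and Tshz2), where 12.4% did. The highest class was the same in both kits for 4 of 5 members, against 49.6% of all genes tested in both. Both Chl1 and Tshz2 stood apart in the same class in both kits, as 6.92% of all genes did. Since the members had been picked for such a pattern, nothing is read from their shares. Over all genes with any UMI, those that stood apart were 4.45% in Parse WT and 5.98% in Parse Mini. Among genes of at least 200 kb, 13.4% stood apart in Parse WT and 27.4% in Parse Mini.

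**Figure D1:**
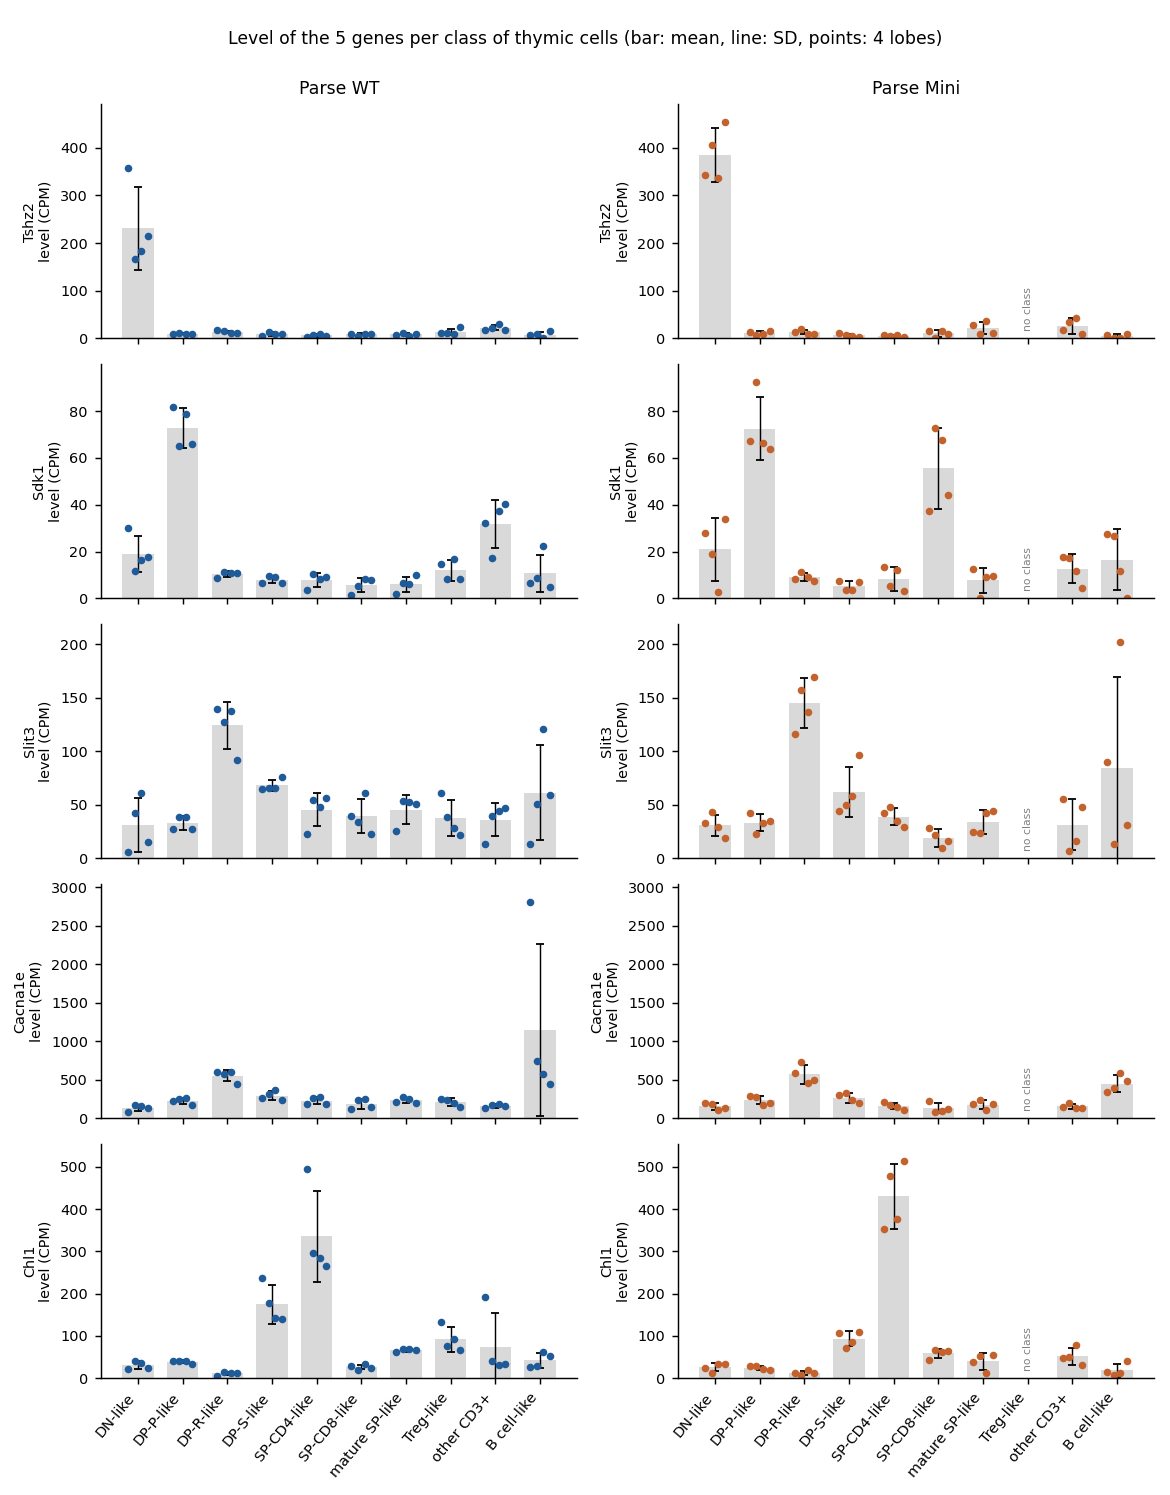
Level of each member (vertical axes, CPM outside ribosomal RNA, from 0) in each class, with Parse WT on the left and Parse Mini on the right; points are lobes, bars their mean and lines the SD (n = 4). Tshz2 is highest in DN-like, Sdk1 in DP-P-like, Slit3 in DP-R-like and Chl1 in SP-CD4-like cells of both kits, and 1 Parse WT lobe puts Cacna1e at 2816 CPM in B-cell-like cells.

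Tshz2 encodes a zinc-finger transcription factor of the teashirt family, which patterns the developing trunk and nervous system. In the 1107 DN-like cells of Parse WT its level was 358, 166, 184 and 216 CPM in lobes 1 to 4, a mean of 231 ± 87.0. In the 421 DN-like cells of Parse Mini it was 342, 406, 336 and 455 CPM, a mean of 385 ± 56.3. Every one of the 8 lobes lay far above every lobe of the next class, the other CD3+ class (innate-like and γδ T cells), whose mean was 22.1 ± 5.16 in Parse WT (10.4-fold lower) and 26.1 ± 15.8 in Parse Mini (14.8-fold lower). The remaining classes ran from 6.54 CPM in SP-CD4-like cells to 14.4 in Treg-like cells in Parse WT, and from 4.30 in B-cell-like to 21.6 in mature SP-like cells in Parse Mini. No 2 neighbours in that lower order were separated, since their lobes overlapped throughout.

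At least 1 Tshz2 UMI was found in 43.6 ± 6.37% of DN-like cells in Parse WT and 53.3 ± 4.20% in Parse Mini, at median depths of 8009 and 6480 UMIs per cell. DP-R-like cells, at a median of 1964 and 1990 UMIs, had it in 2.10% and 1.66%. With each cell thinned to 1000 UMIs, ribosomal RNA included, the shares were 17.1 ± 4.88% against 1.00% and 24.3 ± 2.39% against 0.81%. The gap between the classes was thus present at equal total depth.

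Within the DN-like class Tshz2 was uneven. Cells without a UMI of the proliferation gene Mki67 averaged 415 CPM in Parse WT and cells with one 151 CPM, against 550 and 260 in Parse Mini. Cells with a UMI of Il2ra, the CD25 receptor chain of the middle DN stages, were at 245 CPM and those without at 132 in Parse WT, and at 411 and 118 in Parse Mini. Cells without Cd8a were at 311 and cells with it at 192 in Parse WT, and at 632 and 300 in Parse Mini. Cells without Cd4 were at 317 and cells with it at 192 in Parse WT, and at 558 and 323 in Parse Mini. Many cells of the class held coreceptor transcripts. Of the 1107 DN-like cells of Parse WT, 646 had a Cd4 UMI and 636 a Cd8a UMI, and of the 421 of Parse Mini 235 and 228 did. The gene Kit, the receptor of the earliest progenitors, went the other way than Il2ra, with 249 without it and 182 with it in Parse WT, and 453 and 233 in Parse Mini. The lobes of each pair of groups were separated in both kits for Mki67, and only in Parse Mini for Il2ra, Cd8a, Cd4 and Kit. A UMI of a marker is found more readily in deeper cells, so these splits also divide cells by depth.

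Outside the DN-like class, the highest Parse WT values were in an unnamed cluster of 271 cells at 83.5 CPM and in the other CD3+ cluster with Trdc, the δ receptor gene, at 68.2 CPM. The matching Trdc cluster of Parse Mini was at 44.2 CPM. Markers of fibroblasts moved in part with the DN-like class. Their sum over the 8-gene list was 58.1 to 101 CPM in the DN-like lobes of Parse WT and 60.6 to 94.7 in Parse Mini. Nearly all of it was Pdgfrb, at 72.8 and 71.1 CPM, while the collagen genes Col1a1 and Col1a2 were at 0 in DN-like cells of both kits and Col3a1, Pdgfra and Dcn also at 0 in Parse Mini. No lobe of another class had a list sum above 23.7 CPM, and the part of these transcripts in the Tshz2 level was not tested.

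Sdk1 encodes sidekick cell adhesion molecule 1, an immunoglobulin-superfamily protein that matches synaptic partners in the retina. In the 6924 DP-P-like cells of Parse WT it was at 81.6, 64.9, 78.9 and 65.9 CPM in lobes 1 to 4, a mean of 72.8 ± 8.67. In the 2999 DP-P-like cells of Parse Mini it was at 67.2, 92.6, 66.4 and 63.7 CPM, a mean of 72.5 ± 13.5. The means were nearly equal between the kits, and lobe 1-B stood above the other 3 lobes of Parse Mini. Without the cluster that held cells of only 2 lobes, the Parse Mini mean was 73.7 ± 12.6. The class next in order differed. In Parse WT it was the other CD3+ class at 32.1, 17.1, 37.3 and 40.4 CPM, below every DP-P-like lobe. In Parse Mini it was the SP-CD8-like class at 37.4, 72.7, 67.8 and 44.2 CPM, which overlapped the DP-P-like lobes, whereas the Parse WT SP-CD8-like class was the lowest of all at 5.71 ± 2.98 CPM. In its Parse Mini data the study could not separate SP-CD8 cells by Cd4 and Cd8a, so this class name is uncertain there. The class had 389 CPM of Cd4 and 509 of Cd8a in Parse Mini, against 328 and 525 in Parse WT.

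The SP-CD8-like classes differed in their content of cycling cells. Cells with at least 4 UMIs of Mki67 and Top2a together made up 29.5% of the Parse Mini SP-CD8-like class and 10.8% of the Parse WT class. Pooled over the lobes, those Parse Mini cells had 109 CPM of Sdk1 and the rest of the class 3.00 CPM. The cycling cells of the Parse WT class had 14.5 CPM, from 11 UMIs in 100 cells, and the rest 4.23, so that the cycling cells themselves also differed between kits, with lobes at 0 to 37.4 CPM in Parse WT and 68.1 to 152 in Parse Mini. Within Parse Mini the cycling cells held 132 Sdk1 UMIs and the rest of the class 4. The cause of the difference between kits was not tested.

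Pooled over the lobes, the cells with at least 4 UMIs had more Sdk1 than the rest in every class of both kits, although the smaller classes rest on few Sdk1 UMIs. In DP-P-like cells it was 71.3 against 21.5 CPM in Parse WT and 74.5 against 18.99 in Parse Mini, and in DN-like cells 25.1 against 7.23 and 39.2 against 6.59. In the other CD3+ class it was 62.6 against 4.16 CPM in Parse WT and 24.8 against 9.03 in Parse Mini. The cycling cells of SP-CD4-like (24.8 and 17.1 CPM), mature SP-like (19.7 and 18.8) and DP-S-like (14.3 and 20.2) classes stayed below those of the DP-P-like class. Deeper cells reach 4 UMIs more readily, and the part of depth in this split was not tested.

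**Figure D2:**
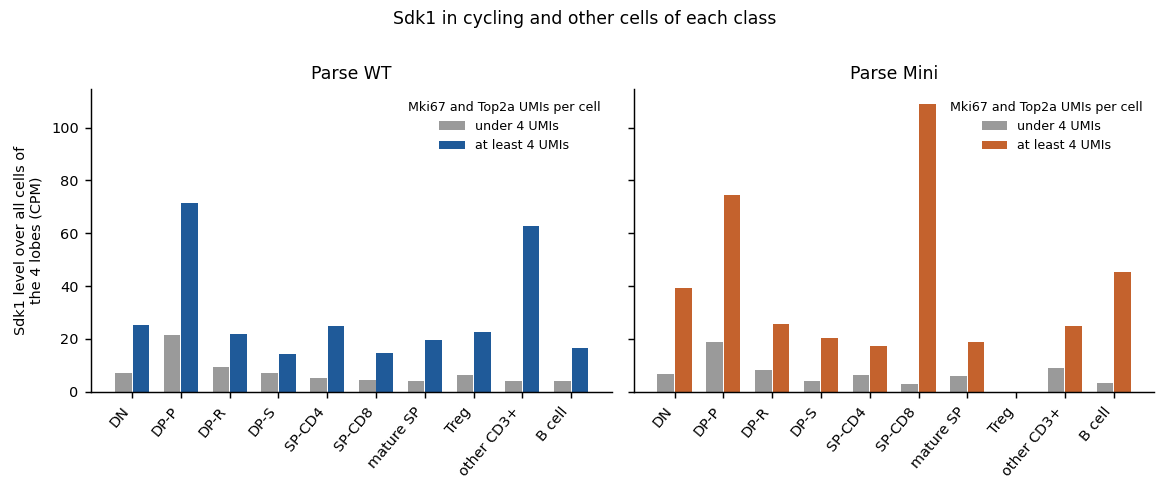
Sdk1 (CPM outside ribosomal RNA, pooled over the 4 lobes) in cells with fewer than 4 and with at least 4 UMIs of Mki67 and Top2a, by class (horizontal axis), for Parse WT and Parse Mini; Parse Mini has no Treg-like class. The cycling cells are the higher bar in every class, with 71.3 and 74.5 CPM in DP-P-like cells and 109 CPM in the SP-CD8-like cells of Parse Mini.

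Within the DP-P-like class Sdk1 was uneven. Parse WT cluster 3, which was rich in the late cell-cycle gene Cenpf (654 CPM), had 122 ± 14.6 CPM. Cluster 5, rich in Pola1, the DNA polymerase α subunit of the replication phase (698 CPM against 281 in cluster 3), had 21.1 CPM, and cluster 12 had 63.4. Cluster 12 also held the SP-CD4 markers Zbtb7b and Cd40lg, at 22.0 and 23.4 CPM. They were at 2.72 and 2.14 in cluster 3 and at 2.92 and 2.55 in cluster 5. Parse Mini had 4 DP-P-like clusters, which were not matched to those of Parse WT. Cluster 8, the highest in Cenpf (908 CPM), had 149 ± 35.9 CPM, cluster 7, the highest in Pola1 (1098 CPM), had 22.9, and cluster 15 had 46.5. Cluster 16, high in both genes, had 136 Sdk1 UMIs in 289 cells, all from lobes 2-A and 2-B.

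Single markers gave the same order. DP-P-like cells without a Pola1 UMI averaged 153 CPM and cells with one 54.7 in Parse WT, against 176 and 51.3 in Parse Mini. For Mcm6, a helicase subunit loaded before replication, the values were 112 without and 52.8 with, and 124 and 46.5. For Cenpf they were 82.2 with and 27.3 without, and 82.4 and 20.1, and for Ccnb1, the mitotic cyclin B1, 98.1 with and 59.6 without, and 95.5 and 57.3. The lobes of the groups did not overlap for these 4 genes in either kit. For Mcm5, of the same helicase, they were apart in Parse WT, at 96.02 without and 54.1 with, and overlapped in Parse Mini, at 86.4 and 58.4.

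A UMI of Sdk1 was found in 22.7 ± 2.08% and 19.6 ± 2.28% of DP-P-like cells, at median depths of 8170 and 6538 UMIs, against 1.962% and 1.77% of DP-R-like cells. Thinned to 1000 UMIs, the shares were 4.79 ± 0.37% and 5.66 ± 1.45% against 0.81% and 0.74%. The difference from DP-R-like cells was thus smaller at equal total depth and still present. At that depth 1 other CD3+ lobe of Parse WT, with 33 cells, was at 6.06%, above the lowest DP-P-like lobe at 4.38%. Sdk1 no longer stood apart in Parse WT at that depth, while in Parse Mini it did.

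Slit3 encodes a secreted ligand of the Robo receptors, a family that repels growing axons. In the 15127 DP-R-like cells of Parse WT it was at 140, 128, 138 and 92.2 CPM in lobes 1 to 4, a mean of 124 ± 22.0. In the 9153 DP-R-like cells of Parse Mini it was at 116, 157, 136 and 169 CPM, a mean of 145 ± 23.5. DP-S-like cells followed among the T-lineage classes, at 68.0 ± 5.50 CPM in Parse WT, below every DP-R-like lobe, and at 61.9 ± 23.6 in Parse Mini. The other T-lineage classes lay between 31.0 CPM (DN-like) and 45.4 (SP-CD4-like and mature SP-like) in Parse WT and between 18.7 (SP-CD8-like) and 38.7 (SP-CD4-like) in Parse Mini, with overlapping lobes.

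Few B-cell-like cells kept Slit3 from standing apart. In Parse WT the B-cell-like lobes were at 13.5, 50.9, 121 and 59.5 CPM, and lobe 3 at 121 rested on 27 UMIs in 5 of 53 cells. In Parse Mini they were at 90.1, 13.3, 202 and 30.8 CPM, and all 17 UMIs behind the 202 CPM of lobe 2-A were in 1 of 23 cells. Without lobe 3 or without lobe 4 in Parse WT, and without lobe 2-A in Parse Mini, Slit3 stood apart in DP-R-like cells.

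The DP-R-like cells were not uniform in Slit3. Among the Parse WT DP-R-like clusters it ran from 45.5 to 230 CPM, and among those of Parse Mini from 69.0 to 366. A split by Rag1 did not reproduce that range. Cells with and without a Rag1 UMI were both at 124 CPM in Parse WT and at 146 and 122 in Parse Mini. Only 8.38 ± 0.74% and 9.04 ± 0.67% of DP-R-like cells had a Slit3 UMI, and 5.19% and 6.42% at 1000 UMIs per cell, against 1.86% and 1.92% of DP-P-like cells at that depth.

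Cacna1e encodes the pore-forming subunit of an R-type voltage-gated calcium channel of neurons and endocrine cells. In DP-R-like cells it was at 605, 571, 596 and 444 CPM in Parse WT, a mean of 554 ± 75.1, and at 593, 736, 458 and 494 CPM in Parse Mini, a mean of 570 ± 125. DP-S-like cells were at 295 ± 57.3 and 266 ± 64.0 CPM, below every DP-R-like lobe of their kit. The lowest means were 136 ± 40.3 CPM in DN-like cells of Parse WT and 130 ± 65.9 in SP-CD8-like cells of Parse Mini, and from DP-S-like cells downward all neighbours overlapped. Among the T-lineage classes the DP-R-like lobes of each kit were thus above all others.

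The B-cell-like level lay above the DP-R-like level in Parse WT and below it in Parse Mini, with overlapping lobes in both kits. In Parse WT the 601 B-cell-like cells were at 2816, 743, 572 and 444 CPM in lobes 1 to 4, a mean of 1144 ± 1121. Lobe 1 alone held 262 of the 601 cells, at a median of 984 UMIs, and 198 of them had a UMI of Cacna1e. Without lobe 1 the B-cell-like mean was 587 ± 150 CPM (n = 3) and the DP-R-like mean 537 ± 81.8, with overlapping lobes. In Parse Mini the 101 B-cell-like cells were at 346, 387, 583 and 482 CPM, a mean of 450 ± 106, and were above the DP-R-like cells of the same lobe in 1 of 4 lobes.

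Both kits' B-cell-like classes carried DP genes as well as B-cell genes. All 8 genes of the B-cell list had UMIs, and their sum was 3243 to 9709 CPM over the Parse WT lobes and 4704 to 11397 over the Parse Mini lobes, against 183 to 236 and 80.2 to 95.3 in DP-R-like cells. The 9-gene DP-R list summed to 1784 to 8248 and 2011 to 8528 CPM in B-cell-like cells, against 13954 to 17292 and 17364 to 18941 in DP-R-like cells. The part of these DP transcripts in the Cacna1e level of the class was not tested.

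A UMI of Cacna1e was found in 39.2 ± 1.21% and 35.5 ± 4.52% of DP-R-like cells and in 65.5 ± 9.48% and 53.0 ± 6.80% of B-cell-like cells. At 1000 UMIs per cell it was found in 26.1% and 26.3% of DP-R-like cells, against 7.70% and 9.41% of DN-like cells. The thinned shares of B-cell-like cells were 43.7 ± 23.0% and 21.9 ± 4.31%. At equal total depth the mean Parse Mini share, from 95 cells, was thus below that of DP-R-like cells. The Parse Mini lobes overlapped, at 17.4% to 26.1% in B-cell-like and 21.9% to 31.0% in DP-R-like cells. Its level was even among DP-R-like clusters, 474 to 595 CPM in Parse WT and 504 to 653 in Parse Mini, unlike that of Slit3. Cells with and without a Rag1 UMI were at 557 and 514 CPM in Parse WT and 576 and 481 in Parse Mini, within the spread between lobes.

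Slit3 and Cacna1e shared the DP-R-like class but were not seen together more than their separate shares give in all lobes. Of thinned DP-R-like cells, 20, 57, 50 and 57 in the Parse WT lobes held both, where the product of the separate shares gives 24.9, 52.7, 49.3 and 46.3. In Parse Mini 29, 52, 22 and 34 cells held both, where the product gives 26.4, 37.9, 31.9 and 33.3. The observed number was above the product in 6 of 8 lobes and below it in lobe 1 and lobe 2-A.

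Chl1 encodes the close homolog of L1, an adhesion molecule of neurite growth. In the 2742 SP-CD4-like cells of Parse WT it was at 496, 297, 284 and 265 CPM in lobes 1 to 4, a mean of 335 ± 108. In the 1374 SP-CD4-like cells of Parse Mini it was at 354, 478, 377 and 513 CPM, a mean of 431 ± 76.9. Lobe 1 was the highest of Parse WT by a wide margin. DP-S-like cells came next, at 237, 177, 143 and 140 CPM in Parse WT (1.92-fold lower) and at 106, 71.3, 85.7 and 110 CPM in Parse Mini (4.62-fold lower), in both kits below every SP-CD4-like lobe.

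Chl1 was lowest in the class just before selection, with 11.1 ± 3.63 and 12.7 ± 4.71 CPM in DP-R-like cells, and was higher in DP-S-like and highest in SP-CD4-like cells. SP-CD8-like cells were far below SP-CD4-like cells, at 26.0 ± 5.58 and 58.7 ± 10.1 CPM. Treg-like cells, resolved in Parse WT only, were at 92.1 ± 29.5 CPM and mature SP-like cells at 66.6 ± 3.67 and 39.4 ± 19.9. The other CD3+ class of Parse WT was at 193 CPM in lobe 1, from 42 UMIs in 5 of 34 cells, and at 30.6 to 40.8 in the other 3 lobes.

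The level differed between clusters of the same class. Of the DP-S-like clusters, Parse WT cluster 8 had 296 CPM of Chl1 and cluster 7 had 74.4, and Parse Mini clusters 10 and 4 had 144 and 63.4. Where clusters were drawn more coarsely in Parse WT (resolution 0.4) or more finely in Parse Mini (resolution 1.2), DP-S-like cells had the higher mean, with a log2 ratio of SP-CD4-like to DP-S-like of -0.045 and -0.25 in place of 0.94 and 2.21. Which of these neighbouring classes led therefore depended on where the clusters were drawn.

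Within SP-CD4-like cells of Parse Mini Chl1 was higher in cells without a UMI of Ccr7, S1pr1 or Klf2, each taken singly. In Parse WT the same splits overlapped between lobes. Cells without Ccr7, the receptor for entry to the medulla, were at 405 ± 145 CPM and cells with it at 251 ± 62.7 in Parse WT, and at 550 ± 87.5 and 247 ± 84.0 in Parse Mini. Cells without S1pr1, the egress receptor, were at 339 ± 105 and cells with it at 288 ± 171 in Parse WT, and at 454 ± 86.4 and 145 ± 92.6 in Parse Mini. For Klf2, the factor that drives S1pr1, the values were 342 ± 104 without and 234 ± 160 with, and 452 ± 88.0 and 110 ± 38.4. Cells with Cd69, raised by receptor signalling, were at 440 ± 152 and those without at 301 ± 87.4, and at 511 ± 178 and 406 ± 49.4, with overlapping lobes in both kits. As for Tshz2, splits by a marker UMI also divide cells by depth. A UMI of Chl1 was found in 41.5 ± 8.76% and 43.1 ± 4.27% of SP-CD4-like cells, and in 19.7% and 26.6% at 1000 UMIs per cell, against 0.82% and 0.70% of DP-R-like cells.

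Positive cells often held several UMIs of a member. In the class each member marks, positive cells held on average 2.23 (Sdk1), 2.95 (Chl1), 3.11 (Slit3), 3.03 (Cacna1e) and 3.54 (Tshz2) UMIs in Parse WT, and 2.50, 3.60, 3.76, 3.70 and 4.77 in Parse Mini. Genes found in 5% to 15% of DP-R-like cells had a median of 1.17 and 1.18 UMIs per positive cell when under 200 kb, and 1.33 and 1.42 when longer. Of the members only Slit3, in 8.38% and 9.04% of these cells, lies in that range of detection, so the medians compare with Slit3 alone. In these classes, cells with at least 3 UMIs held 58.5% (Sdk1) to 79.0% (Tshz2) of a member's UMIs in Parse WT and 65.6% to 86.9% in Parse Mini. A single cell of these classes held up to 43. Whether the UMIs of a cell stand for separate RNA molecules was not tested.

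**Figure D3:**
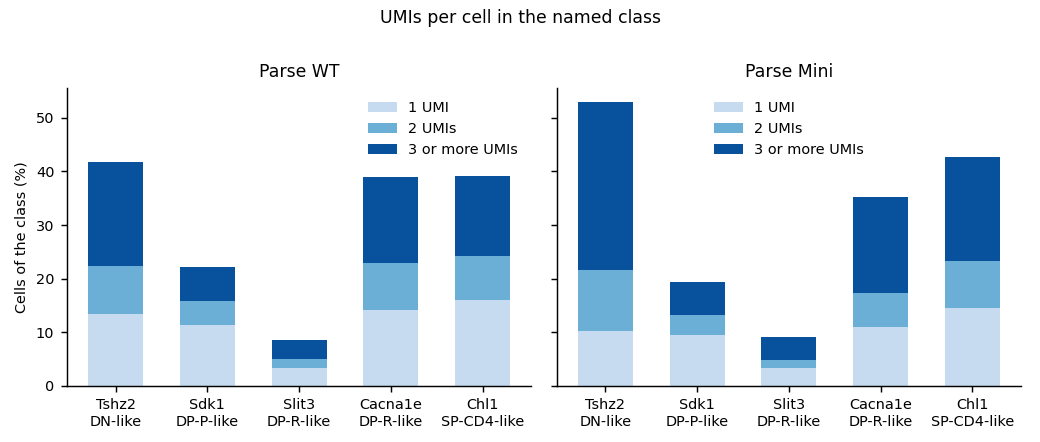
Share of cells (percent) with 1, 2 and at least 3 UMIs of a member in the class it marks (Sdk1 in DP-P-like, Chl1 in SP-CD4-like, Slit3 and Cacna1e in DP-R-like, Tshz2 in DN-like cells), for Parse WT and Parse Mini. Tshz2 has at least 3 UMIs in 19.5% and 31.4% of DN-like cells, and Slit3 in 3.46% and 4.32% of DP-R-like cells.

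The wells of the barcoding round that names the sample gave the same picture on a finer scale. Tshz2 in DN-like cells ran from 159 to 424 CPM over 8 Parse WT wells and from 278 to 529 over the 11 Parse Mini wells with enough cells. Sdk1 in DP-P-like cells ran from 59.4 to 93.4 CPM over 8 wells and from 48.1 to 122 over 12. Chl1 in SP-CD4-like cells ran from 242 to 544 and from 323 to 571 CPM, Slit3 in DP-R-like cells from 91.3 to 152 and from 93.1 to 193, and Cacna1e there from 429 to 663 and from 417 to 753. No well of the named class was near 0, so no level rested on a single well.

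Of 8 genes that mark neurons or glia, the summed level over lobes was 5.44 to 13.01 CPM in DN-like, 5.92 to 8.31 in DP-P-like, 4.70 to 5.89 in DP-R-like and 9.59 to 18.0 in SP-CD4-like cells of Parse WT. In Parse Mini it was 6.31 to 16.9, 4.75 to 5.42, 1.92 to 4.58 and 4.43 to 17.0 CPM. Sox10, a factor of glia, was at 0 in the DN-, DP-P- and SP-CD4-like cells of both kits and not in DP-R-like cells. Map2, a neuronal cytoskeleton gene, was highest in the other CD3+ class, at 37.0 CPM in Parse WT and 31.7 in Parse Mini.

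Relatives of the members showed no common pattern. Of the other L1-family genes 0 of 3 measured stood apart in Parse WT and 0 of 1 in Parse Mini, and L1cam reached 25.4 CPM in mature SP-like cells of Parse WT. Of the Slit and Robo pathway 1 of 7 stood apart in Parse WT and 0 of 5 in Parse Mini, the 1 being the ligand gene Slit1 in DP-P-like cells at 5.01 ± 0.46 CPM. Srgap2, a GTPase-activating protein downstream of Robo, was at 382 ± 58.2 and 447 ± 24.3 CPM in DP-P-like cells without standing apart. The sidekick paralog Sdk2 had too few UMIs in both kits, and Tshz1 and Tshz3, the teashirt relatives, stood apart in neither, Tshz1 being highest in SP-CD8-like cells at 114 ± 29.0 and 132 CPM.

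Of the other calcium-channel subunits 3 of 13 measured stood apart in Parse WT, where 9.67% of all genes did, and 2 of 8 in Parse Mini, where 12.4% did. Cacnb2, an auxiliary β subunit, did so in DN-like cells at 98.3 ± 21.3 and 93.0 ± 22.4 CPM. Cacna1d, an L-type pore subunit, did so in B-cell-like cells at 208 ± 134 and 269 CPM, and Cacna1i, a T-type pore subunit, in B-cell-like cells of Parse WT at 71.5 ± 90.4. The median fold of the highest class over the next was 2.06 and 1.72 for the members and 1.14 and 1.15 over all genes. The 2.06 was that of Cacna1e in B-cell-like cells and the 1.72 that of Slit3 in DP-R-like cells, neither of which stood apart. Since the members had been picked for a raised class, nothing is read from their higher folds.

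Genes most alike to each member were taken from 10641 genes by Pearson's r of log2(CPM + 1) over the 40 class-by-lobe sums of Parse WT, which share libraries, depth and classes. For Tshz2 they were Cacnb2 (r = 0.89, and 0.64 over the 36 sums of Parse Mini), Rnf220 (0.87 and 0.84) and Mcub (0.84 and 0.87). For Sdk1 they were Ube2c (0.86 and 0.56), Ska2 (0.86 and 0.61) and Ect2 (0.85 and 0.68), all of them genes of mitosis. For Chl1 they were Ccr4 (0.87 and 0.71), Hivep3 (0.87 and 0.73) and Itm2a (0.86 and 0.82). Hivep3 was among the markers that named DN-like cells, and Itm2a among those that named DP-S-like cells. For Cacna1e they were Lamc1 (0.86 and 0.81), Ptpn14 (0.86 and 0.39) and Mtss1 (0.85 and 0.69).

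The values of Slit3 were lower. Its closest genes by Parse WT, Pycard, Rnf145 and Ldhb, each had r = 0.75 there and 0.11, 0.51 and -0.07 in Parse Mini. The members were little alike among themselves, apart from Slit3 and Cacna1e at 0.43 and 0.62, with every other pair between -0.47 and 0.22.

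The 16 other samples of the Parse WT library had 79860 cells, 2085 to 7982 per sample, of which 37605 were in B-cell-like clusters. Rag1 was at 4.40 to 27.8 CPM per sample (median 6.53) against 739 to 1019 in the 4 lobes. Over all cells of a sample, Sdk1 had a median of 6.35 CPM (2.86 to 12.4), Chl1 7.05 (5.68 to 11.6) and Tshz2 3.17 (1.39 to 6.73). The whole-thymus means in Parse WT were 32.3 ± 3.54, 70.6 ± 15.2 and 23.2 ± 2.90 CPM. No sample of the 16 reached the lowest lobe in any of these 3 genes.

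Slit3 and Cacna1e did not share that separation. Slit3 had a median of 17.8 CPM with a range of 5.19 to 114, and Cacna1e 825 CPM with 366 to 3218, against whole-thymus means of 62.1 ± 8.93 and 325 ± 60.9. Of the named classes, Cacna1e was highest in plasmacytoid-dendritic-like, B-cell-like and plasma-cell-like cells, at 2722, 2253 and 1996 CPM pooled and at medians over samples of 2547, 1564 and 2084, so that the order of the latter classes depends on the pooling. It ranged from 612 to 3788 CPM among the B-cell-like clusters, the highest of which had 92.4% of its cells from 1 sample, and was at 1300.2 in a cluster of 263 APC-like cells, against 29.6 to 54.3 in the SP-CD4-, SP-CD8-, Treg-like and other CD3+ clusters with at least 500 cells. Slit3 reached 166 CPM in a B-cell-like cluster of 933 cells, of which 80.7% came from 1 sample, and 24.0 CPM pooled over all B-cell-like clusters.

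**Figure D4:**
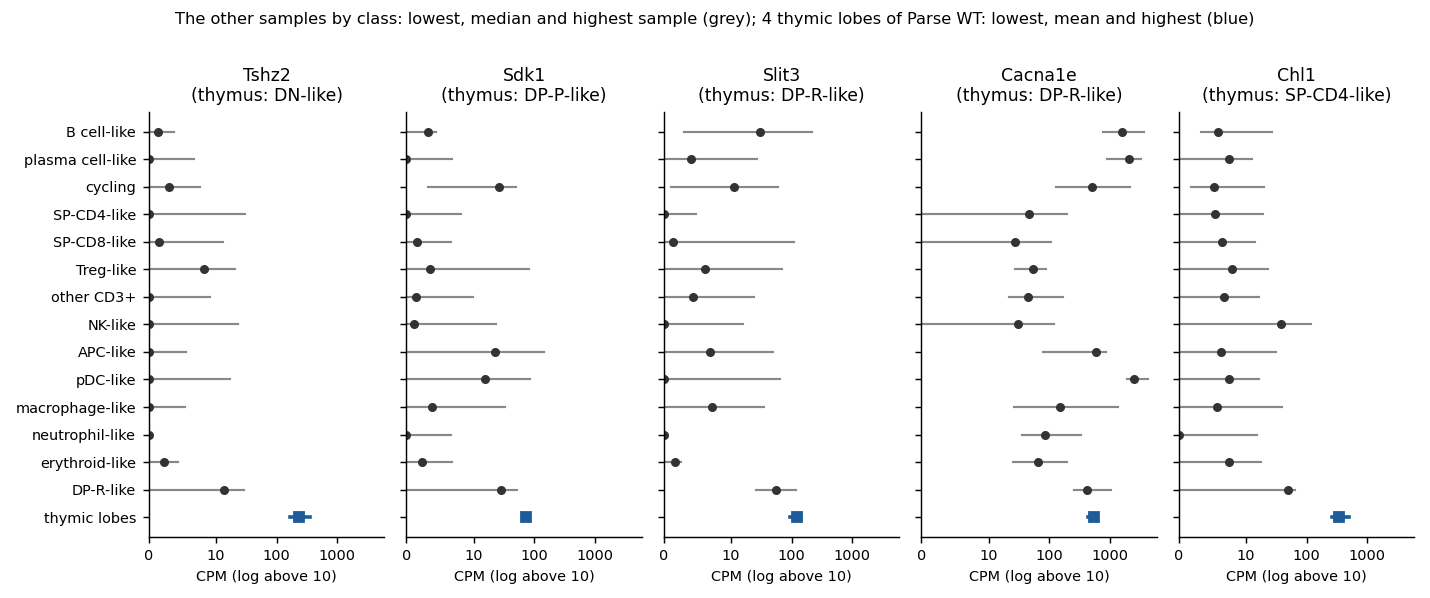
Level of each member (horizontal axes, CPM outside ribosomal RNA, linear to 10 and log above) in the classes of the 16 other samples, as the lowest, median and highest sample with at least 20 cells of the class (grey), and in the 4 Parse WT thymic lobes for the class in the panel title, as the lowest, mean and highest lobe (blue). Tshz2, Sdk1 and Chl1 medians of all classes lie below the lobes, and Cacna1e is at a median of 1564 CPM in B-cell-like, 2084 in plasma-cell-like and 2547 in plasmacytoid-dendritic-like (pDC-like) cells.

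Sdk1 was again higher, pooled over samples, in the cycling cells of 3 of the 4 kinds of cell compared here. B-cell-like cells with at least 4 UMIs of Mki67 and Top2a had 42.7 CPM and those with none 3.16. T-cell-like cells had 16.9 against 2.44 CPM and macrophage- or neutrophil-like cells 29.8 against 2.80. The 16.9 rested on 14 UMIs in 132 cells, and T-cell-like cells with none reached 37.7 CPM in 1 sample. Cycling macrophage- or neutrophil-like cells were at 0 to 21.6 CPM in the 5 samples with at least 20 of them. Erythroid-like cells were the exception and held the most cycling cells, with 2.13 CPM of Sdk1 in 1747 cycling cells that had 4194 CPM of Mki67, while the 86 with none gave 22.9 CPM from only 2 UMIs. Over all APC-like cells there were 40.1 CPM at 179 CPM of Mki67. Of the named classes, Chl1 was highest in NK-like and DP-R-like cells, at 44.3 and 43.3 CPM pooled. Their medians over samples were 38.4 and 49.7, so that their order depends on the pooling. The DP-R-like cells of these samples also had 620 CPM of Mki67, so that class name is uncertain here. A macrophage-like cluster was at 48.6 CPM of Chl1, and 99.2% of its cells came from 1 sample.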

How the data were processed

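Gene counts per cell (UMIs) were deposited by the authors as 1 matrix per kit. They made them with the split-pipe software on mm10, run for each sublibrary and then combined, and they gave no version in the sources used here. Values are whole UMI counts with no normalization. Droplet libraries of the same study were not analysed here. Per-sample columns that could not be mapped numbered 0. Of the 57010 listed gene IDs, 52081 matched GENCODE M21.

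Kept cells had between 500 and 25000 UMIs, of which mitochondrial genes took no more than 15%. Doublets (1850 in Parse WT, 908 in Parse Mini) were called by a nearest-neighbour score against simulated doublets, at the share of collisions expected from the filling of the wells, and removed. They were 1.41% to 6.67% of the cells of a Parse WT lobe and 4.18% to 5.07% of a Parse Mini lobe. With scDblFinder the study reported a much larger share in both libraries, so doublets can remain among the cells used here. Following the design of the study, cells were normalized per sample with SCTransform and integrated on 3000 features by reciprocal PCA. Choices made here were to leave the 5 members out of the features and to cluster on 30 components at resolution 0.8 (Seurat 5.3.0, sctransform 0.4.2, R 4.3.3). A cluster took the name of the marker list with the highest mean fold, or of another list with more markers among its 10 leading genes. At least 3 markers had to be raised (1.25-fold, 10 UMIs). It stayed unnamed where its median UMI count was under 1/3 of its sample's and no marker was among its leading genes. So did clusters in which markers of cells other than T cells were raised too little or pointed to several kinds of cell. In each kit 2 clusters stayed unnamed. A cluster of the other samples whose Cd79a level mixed B cells with another type was left unnamed, a rule set after seeing the data. Those samples were clustered with Leiden at resolution 1.0 on log counts (scanpy 1.11.5, leidenalg 0.10.2).

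UMIs were summed per lobe and class, for classes with at least 20 cells in every lobe, and divided by all UMIs except those of the ribosomal RNA genes mt-Rnr1, mt-Rnr2 and Rn18s-rs5. These made up 17.2% to 27.5% of a lobe's UMIs in Parse WT and 12.8% to 15.5% in Parse Mini. Total depth was 20.4 to 70.2 and 17.9 to 19.7 (1e6 UMIs per lobe). To compare shares of cells, 1000 UMIs were drawn from each cell, and cells with fewer were left out. The draw was from all UMIs, ribosomal RNA included, so depth outside ribosomal RNA was not made equal. The rule for a gene that stands apart was also run on simulated data with independent lobes of a fixed spread. The real lobes share mice and spread unequally, so that run cannot show how the rule performs here. No test compared the members between classes, kits or samples, and the only test on them was Dixon's test for a lobe far from the others. The members, the marker lists and the lists of related genes were chosen with earlier results of these data known. Named genes are the members, markers where a class is introduced or divided, the 3 genes most alike to each member, overlapping genes, and related genes by their class level, of which some are not reported here. Sums and levels were computed in Python 3.11.15 (pandas 2.3.3, numpy 2.4.6, scipy 1.17.1), doublet scores with scikit-learn 1.9.0 and figures with matplotlib 3.10.9.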

Additional observations from a re-analysis of the deposited data

Results flagged for a closer look

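Of 95 sets of 4 lobes tested for a lobe far from the others, 8 were flagged, where chance flags about 1 in 20. In Parse WT, lobe 1 stood apart for Cacna1e in B-cell-like cells (2816 CPM against 444 to 743 in the other lobes), for Chl1 in SP-CD4-like cells (496 against 265 to 297), for Chl1 in the other CD3+ class (193 against 30.6 to 40.8) and, on the low side, for Slit3 in mature SP-like cells (25.2 against 50.8 to 53.3). These values rested on 262, 274, 34 and 191 cells of lobe 1, and the 262 were more B-cell-like cells than any other lobe had. Lobe 4 stood apart for Chl1 in DP-P-like cells on the low side (33.1 CPM against 39.4 to 40.6) and for Slit3 in DP-S-like cells (76.2 against 64.6 to 66.1). In Parse Mini, lobe 1-B stood apart for Sdk1 in DP-P-like cells (92.6 CPM against 63.7 to 67.2) and lobe 1-A for Chl1 in SP-CD8-like cells on the low side (43.7 against 62.3 to 65.6).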

How the results depend on the processing

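In Parse WT 3 members stood apart, and 5 did with UMI gates in place of clusters or with T-lineage classes only, the latter chosen after seeing the data. It was 2 at 1000 UMIs per cell, where Sdk1 no longer stood apart, and 2 at resolution 0.4, where Chl1 no longer did. With called doublets kept it was again 3, but Chl1 no longer stood apart and Slit3 did. In Parse Mini 2 members stood apart, against 4 at 1000 UMIs per cell, 1 at resolution 0.4, 1 at resolution 1.2, 4 of the 4 measured with UMI gates, where Chl1 gave no value, 4 with T-lineage classes only and 5 with cycling cells left out of classes other than DP-P-like, the last of these also chosen after seeing the data. Leaving out each lobe in turn gave 3 to 4 members in Parse WT and 2 to 4 in Parse Mini, where lobe 2-A moved the count to 4. With B-cell-like cells left out, fewer classes are compared. The same holds for the UMI gates, which gave at most DN-, DP-P-, DP-R- and SP-CD4-like classes. Classes that overlapped a member's highest class in the main setting, such as B-cell-like cells, were absent there. The counts with gates therefore cannot show whether a member stands apart from those classes. The causes of the other changes were not tested. The number with the same highest class in both kits was 4 and ranged from 3 to 5 over the settings. The share of all genes that stood apart fell from 9.67% to 4.45% in Parse WT and from 12.4% to 5.98% in Parse Mini without the minimum of UMIs, which adds sparse genes to the denominator. The log2 ratio of Chl1 in SP-CD4-like to the highest other class changed sign at resolution 0.4 in Parse WT (-0.045 in place of 0.94) and at resolution 1.2 in Parse Mini (-0.25 in place of 2.21). Tshz2 stood apart in 11 of 11 settings of both kits, Sdk1 in 10 of 11 and 5 of 11, Chl1 in 9 of 11 and 8 of 10, Slit3 in 3 and 4 of 11 and Cacna1e in 2 and 3 of 11. Of the ratios and levels recomputed, 127 moved by no more than their spread, 27 moved by more and 2 positive ratios changed sign. The log2 ratio of Cacna1e in DP-R-like cells of Parse WT to the highest other class began negative. It turned positive with UMI gates and with T-lineage classes only, both without a B-cell-like class. The count of sign changes leaves these turns out.

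Depth limits the shares of cells more than the levels, since a class at a median under 2000 UMIs per cell shows fewer cells with a UMI. Each kit held lobes of only 2 mice, so spreads between lobes are not spreads between animals. Between the kits no paired analysis was possible because the replicate numbers that they share count sublibraries, not mice. Within a kit every class comes from the same 4 lobes, and the ratio of a member's highest class to the next, taken lobe by lobe with no test, ran from 6.29 to 19.5 for Tshz2 in Parse WT and from 0.98 to 1.79 for Sdk1 in Parse Mini.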

Other observations

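An unnamed cluster of 66 cells from 15 of the 16 other samples had all of Tshz2, Slit3 and Sdk1 at levels above those of any other cluster there, at 1017, 388 and 251 CPM. It also had 286 CPM of Flt1, an endothelial receptor, 59.6 of Pdgfra and 35.8 of Col1a1, both genes of fibroblasts. Chl1 was at 5.96 CPM in it, near the median of the samples. The cluster had fewer than 20 cells in every sample, and 28.8% of its cells came from 1 sample.

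A cluster of 2213 cells in the other samples was named DP-R-like, with 419 CPM of Rag1 at a median of 1077 UMIs per cell. Its cells had 31.4 CPM of Sdk1, 43.3 of Chl1, 55.2 of Slit3, 510 of Cacna1e and 15.5 of Tshz2, so that members of different thymic classes were found in the same cluster, and it also had 620 CPM of Mki67. In the DP-R-like cells of the thymic lobes of Parse WT, Sdk1 and Chl1 were lower, at 10.4 and 11.1 CPM, and Slit3 was higher, at 124 CPM. Over all thymic cells of Parse WT, Sdk1 was at 32.3, Slit3 at 62.1, Tshz2 at 23.2 and Mki67 at 723 CPM. Chl1 was at 70.6, Cacna1e at 325 and Rag1 at 852 CPM there. The name of the cluster is therefore uncertain, and what its cells are was not tested. A neutrophil-like cluster of 184 cells among the Parse WT thymic cells had 45.3 ± 32.7 CPM of Sdk1, from 22 UMIs and as few as 18 cells in a lobe, and 328 ± 152 CPM of Cacna1e. The cluster also had 585 CPM of Rag1, 451 of Cd8a and 898 of Mki67, and neutrophil-like cells of the other samples had 3.12 CPM of Sdk1. The part of these transcripts in its values was not tested.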
